A study of Homo sapiens with 6 samples.

Results

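The genes described here encode the extracellular matrix of a kidney tubule cell line and the machinery that builds, cuts and signals through it. They were chosen by name as collagens, laminins, matrix glycoproteins, crosslinking enzymes, proteases and TGF-beta genes, 48 in all, and 45 of them were found by symbol among the 25808 gene IDs analysed. COL1A2, COL3A1 and TIMP3 were not analysed here. RNA came from HK2 cells, an immortalised line derived from human proximal tubule epithelium, in 6 libraries. In 3 libraries the confluent cells had received TBOEP, tris(2-butoxyethyl) phosphate, a flame retardant and plasticiser, at 20 µM for 48 hours. In the other 3 they had received DMSO, a solvent, and the labels give neither its dose nor its duration.

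The matrix under a tubule is a basement membrane, a sheet in which type IV collagen and laminin form networks that nidogen and heparan sulfate proteoglycans hold together. In kidney fibrosis, fibronectin and the fibrillar collagens accumulate between tubules, TGF-beta is the best known inducer of their genes, and smooth muscle actin marks the myofibroblasts that make most of them. Procollagen chains are hydroxylated and folded in the endoplasmic reticulum, lysyl oxidases crosslink them outside the cell, and metalloproteinases cut them under the control of TIMP proteins.

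The libraries held 32547856 to 38247579 reads. The labels do not say whether the 3 libraries of a group came from separate cultures, so p-values measure only how far these libraries differ, and that spread may be technical. Of 12 proximal tubule marker genes, 9 were in the table. PAX8 and MIOX were above 1 FPKM (fragments scaled to gene length and to library size) in all 6 libraries, while 6 of the 9 (CUBN, SLC34A1, SLC5A2, AQP1, GGT1 and ANPEP) stayed under 1 FPKM, CUBN, an endocytic receptor, between 0 and 0.0125 FPKM. MIOX fell with TBOEP (log2 fold change -0.40, limma adjusted p = 0.00178) and PAX8 differed by -0.01 (limma adjusted p = 0.752). The keratins stood at 92.3 to 418 FPKM, with KRT8 and KRT19 lower (-0.31 and -0.19, limma adjusted p = 1.64e-05 and 0.00124) and KRT18 higher with TBOEP (0.22, limma adjusted p = 3.53e-04), KRT19 turning to 0.10 once GC content and length were corrected for. The epithelial cadherin CDH1 was at 0 to 0.0393 FPKM and EPCAM at 11.8 to 15 FPKM. The part of these marker differences in the results on matrix genes was not tested. Fibroblast markers summed to between 0.781 and 0.871 FPKM in TBOEP libraries and between 0.632 and 1.18 FPKM in DMSO libraries over 6 genes, none of which reached 1 FPKM in 3 libraries, and DCN stayed at or under 0.019 FPKM. Endothelial markers, 3 genes, summed to at most 0.0908 FPKM in TBOEP libraries and 0.085 FPKM in DMSO libraries, and leukocyte markers, 2 genes, to at most 0.998 FPKM in TBOEP libraries and 0.548 FPKM in DMSO libraries. In a culture such as this, fewer cells expressing a gene and less of its RNA per cell cannot be told apart.

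Promoter windows of 5 of these genes show the DNA in front of the fibronectin gene, the type IV collagen pair and TGFB2, whose mRNAs were lower with TBOEP, and of TGFBI, whose mRNA was higher. Each runs 5′ to 3′ from 250 bases before to 50 bases after a RefSeq transcript start (GRCh38.p14). Capitals mark matches, on either strand, to the CCAAT box (CCAAT), the GC box (GGGCGG), the cyclic AMP element (TGACGTCA), the AP-1 element (TGAGTCA), the TATA box (TATAAA) and the CArG box.
FN1, chr2:215436019-215436318, minus strand: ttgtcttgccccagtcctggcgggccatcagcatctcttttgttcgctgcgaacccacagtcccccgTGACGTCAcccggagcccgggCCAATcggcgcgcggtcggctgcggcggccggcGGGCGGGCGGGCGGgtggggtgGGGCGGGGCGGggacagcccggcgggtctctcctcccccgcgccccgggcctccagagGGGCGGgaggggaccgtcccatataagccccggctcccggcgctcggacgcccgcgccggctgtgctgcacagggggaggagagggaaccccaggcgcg
COL4A1, chr13:110307108-110307407, minus strand: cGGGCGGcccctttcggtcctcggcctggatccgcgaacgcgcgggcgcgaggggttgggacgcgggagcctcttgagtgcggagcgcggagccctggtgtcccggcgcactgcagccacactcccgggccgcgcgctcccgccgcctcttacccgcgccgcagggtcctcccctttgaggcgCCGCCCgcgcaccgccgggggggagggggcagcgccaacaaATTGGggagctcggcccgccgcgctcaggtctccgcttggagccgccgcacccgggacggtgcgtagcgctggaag
COL4A2, chr13:110307034-110307333, plus strand: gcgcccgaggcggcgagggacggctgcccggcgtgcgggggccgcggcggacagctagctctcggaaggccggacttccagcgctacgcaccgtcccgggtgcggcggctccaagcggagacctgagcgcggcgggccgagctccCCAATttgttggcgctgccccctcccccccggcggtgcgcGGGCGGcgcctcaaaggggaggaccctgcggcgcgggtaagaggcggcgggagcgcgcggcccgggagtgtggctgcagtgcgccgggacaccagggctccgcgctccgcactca
TGFB2, chr1:218345086-218345385, plus strand: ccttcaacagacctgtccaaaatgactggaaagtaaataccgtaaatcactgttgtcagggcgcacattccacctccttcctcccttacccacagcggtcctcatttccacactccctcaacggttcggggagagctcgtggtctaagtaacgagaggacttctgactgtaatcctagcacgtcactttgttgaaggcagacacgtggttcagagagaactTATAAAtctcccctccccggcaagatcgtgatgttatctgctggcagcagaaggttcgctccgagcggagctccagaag
TGFBI, chr5:136028738-136029037, plus strand: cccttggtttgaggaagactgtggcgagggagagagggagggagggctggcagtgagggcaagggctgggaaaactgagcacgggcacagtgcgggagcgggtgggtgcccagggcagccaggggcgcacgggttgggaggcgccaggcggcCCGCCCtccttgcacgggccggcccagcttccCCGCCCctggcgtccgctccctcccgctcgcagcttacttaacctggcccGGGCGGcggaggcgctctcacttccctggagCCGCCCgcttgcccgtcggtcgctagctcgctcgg
COL4A1 and COL4A2 lie head to head, and their windows are the same 226 bases of DNA read from opposite strands over most of their length, with 1 CCAAT box in the shared stretch that reads ATTGG on the COL4A1 strand. The FN1 window held 6 GC boxes, of which 3 neighbouring pairs overlap, beside 1 cyclic AMP element and 1 CCAAT box. The TGFBI window held 4 GC boxes, and the TGFB2 window a TATA box and no other match. No motif overlapped a different one in these 5 windows. Over all 35116 windows of the RefSeq table, 45% held a GC box, 34.6% a CCAAT box, 11.5% a TATA box, 4.95% an AP-1 element, 1.85% a cyclic AMP element and 1.29% a CArG box. Of the 49 windows of 38 genes of the matrix list, 71.4% held a GC box, 28.6% a CCAAT box, 10.2% a TATA box, 8.16% an AP-1 element, 4.08% a cyclic AMP element and 2.04% a CArG box. AGRN, COL1A1, COL5A2, COL6A1, LOXL2, MMP2 and TAGLN had no window in that table.

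HK2 cells made much of this matrix in both conditions. Of the 45 genes, 39 reached 1 FPKM in 3 or more of the 6 libraries and 37 did so in all 6. In DMSO cells 7 genes averaged over 100 FPKM (FN1, TGFBI, SPARC, TIMP1, LOXL2, AGRN and SERPINH1), 21 averaged between 10 and 100 FPKM and 11 between 1 and 10 FPKM. FN1 alone took 0.998%, 0.992% and 0.916% of reads in TBOEP libraries 1 to 3, against 1.3%, 1.26% and 1.26% in DMSO libraries 1 to 3. All 45 genes together took 2.26 to 2.36% of reads in TBOEP libraries and 2.64 to 2.71% in DMSO libraries. Their summed FPKM was 2485 to 2548 in TBOEP libraries and 2678 to 2746 in DMSO libraries. Without FN1 the summed FPKM overlapped between the groups, at 1955 to 1975 in TBOEP libraries and 1952 to 1997 in DMSO libraries. A sum of FPKM is a different measure from a share of reads, so this overlap does not carry over to the read shares.

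**Figure D1:**
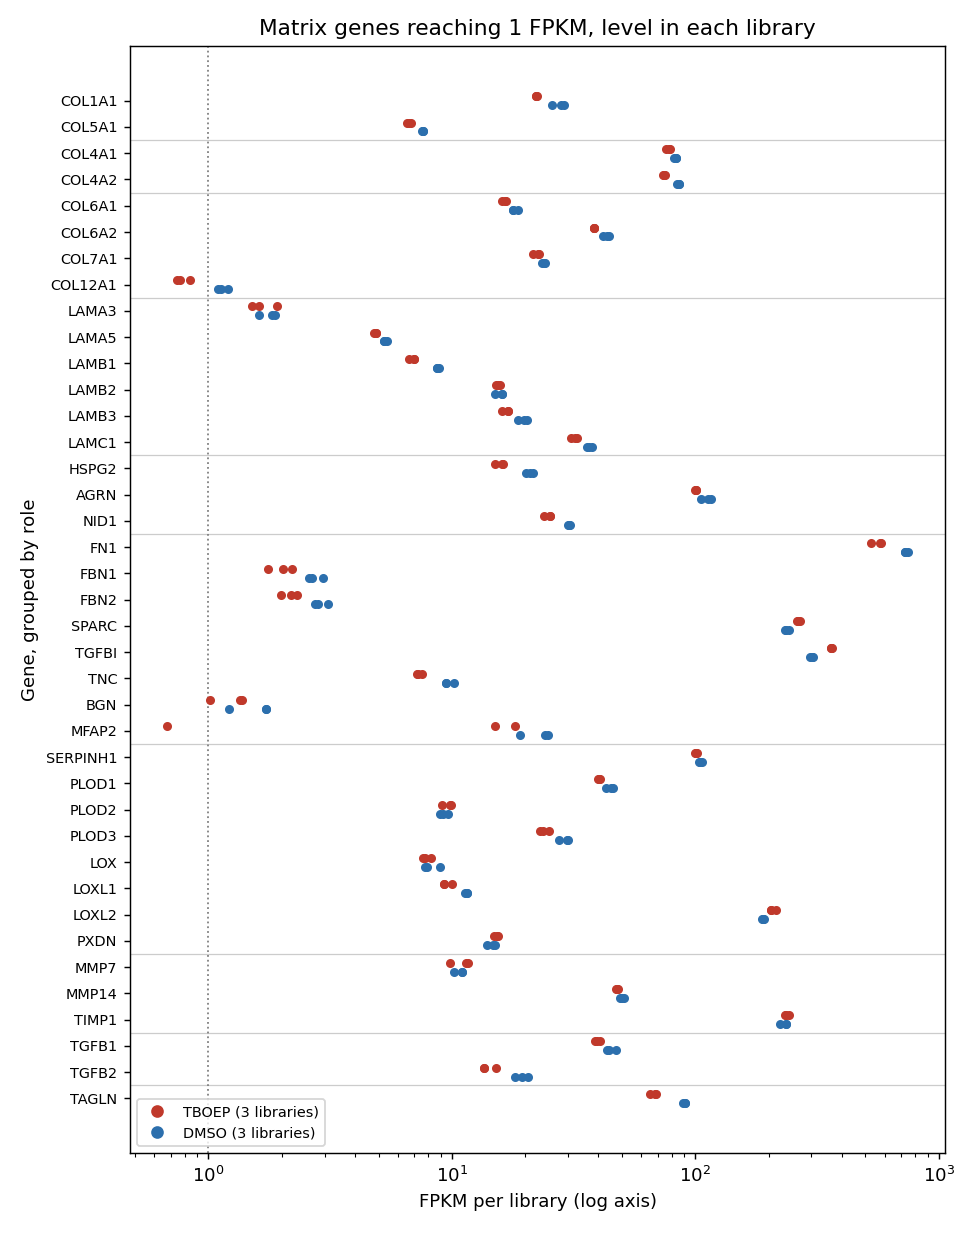
FPKM of the 39 matrix genes that reached 1 FPKM in 3 or more of the 6 libraries, on a log axis, with TBOEP libraries (red) above DMSO libraries (blue) and genes grouped by role; the dotted line marks 1 FPKM. FN1 has the highest values, 529 to 577 FPKM in TBOEP and 726 to 749 FPKM in DMSO, and 1 TBOEP library of MFAP2 stands apart at 0.676 FPKM.

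The 6 genes below 1 FPKM in every library include the main marker of myofibroblasts. ACTA2, smooth muscle actin, had 8, 11 and 8 reads in TBOEP libraries 1 to 3, against 10, 18 and 9 reads in DMSO libraries. MMP2, the gelatinase that cuts type IV collagen, had at most 1 read in any library. COL18A1, the precursor of endostatin, had 0, 1 and 2 reads in TBOEP libraries, against 4, 8 and 8 reads in DMSO libraries. These reads were recovered from the FPKM values and are less certain at such low counts. LTBP1, which holds TGF-beta latent in the matrix, stood at 0.0532 to 0.0897 FPKM in TBOEP libraries and 0.114 to 0.136 FPKM in DMSO libraries. COL5A2 stayed under 0.2 FPKM in all 6 libraries, and COL4A5, the type IV chain mutated in Alport syndrome, averaged 0.609 ± 0.0202 FPKM in TBOEP cells and 0.583 ± 0.0143 FPKM in DMSO cells (SD, n = 3 each). These 6 were left out of the test; in the fit with no filter on low values none was called, with limma adjusted p from 0.201 (COL18A1) to 0.954 (COL5A2), and none had an unadjusted p under 0.05.

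Most of the matrix genes that were tested had lower mRNA levels in TBOEP cells, by modest amounts. By limma on log2(FPKM + 1), adjusted over 9631 genes at a threshold of 0.05, 26 of the 39 were called, where 53.8% of all tested genes were. Of these, 23 fell (59% of the 39, against 26.9% of all tested genes) and 3 rose (7.69%, against 26.9% of all tested genes), while 13 did not pass. The list was chosen with earlier results of these data known, so its shares may not be independent of that choice. Centring each library on its median gave 27 lower and 2 higher, and 61.4% in place of 49.9% of all called genes were then lower. All 26 calls were small, with absolute log2 fold changes between 0.10 and 0.43. The median over the 39 was -0.16 and the median over all tested genes -0.02. Summed over all genes, FPKM came to 361398 to 363918 in TBOEP libraries and 378135 to 381855 in DMSO libraries. The part of that difference in these small calls was not tested. All 3 TBOEP libraries lay below all 3 DMSO libraries in 28 of the 39 (71.8%, against 31.8% of all tested genes) and above them in 3, where the share of all tested genes was 30.5%. Either way, 31 of 39 did not overlap (79.5%, against 62.3%). A gene could enter the test through its DMSO values alone, and COL12A1 did, so its place among the 23 rests on the group where it was high. With no filter 22 fell and 3 rose. COL12A1 kept its call there, and COL6A1 was the gene that lost its call (limma adjusted p = 0.0533).

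GC content went with the fold changes over all tested genes, whose median log2 fold change was -0.24 over 60% GC and 0.04 at or under it. Among the matrix genes these medians were closer, -0.17 and -0.15. The genes had a median GC content of 57.9%, against 50.3% over all tested genes. Of the 14 genes over 60% GC, 10 fell (71.4%), close to the 64.7% of all tested genes over 60% GC. Of the 25 at or under 60% GC, 13 fell (52%), against 19.1% of all tested genes in that class, and 3 rose, against 32.5%. Across 38 of the genes, MFAP2 left out, the log2 fold change had a Pearson correlation of -0.06 with GC content; the points share the same 6 libraries. After each library was corrected for a smooth surface of GC content and transcript length, 15 of 39 were lower, where 24.3% of all genes tested were. In the same fit 8 of 39 were higher, close to the 21.3% of all genes tested that were. Of the 23 that fell, 14 were still lower, 7 were no longer called and 2, AGRN and COL6A2, were called higher. The part of GC content and length in the differences was not tested further.

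**Figure D2:**
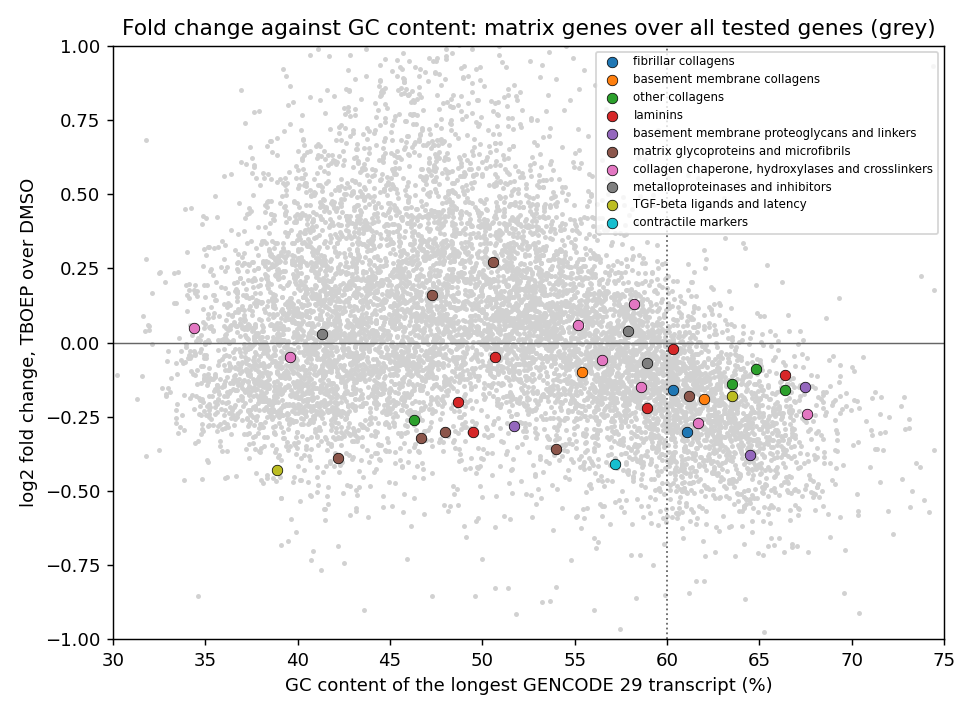
Log2 fold change of TBOEP over DMSO against GC content of the longest GENCODE 29 transcript, for 38 matrix genes coloured by role and all tested genes in grey; MFAP2 is left out, the vertical axis stops at -1 and 1, and the dotted line marks 60% GC. Grey points slope downwards above 60% GC, where all 14 matrix genes lie below 0, while below 60% GC the matrix genes at the foot of the plot include TGFB2 at -0.43, TAGLN at -0.41 and FN1 at -0.39.

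The fibrillar collagen COL1A1, the main chain of scar collagen, was lower in TBOEP cells. It stood at 22.2, 22.2 and 22.4 FPKM in TBOEP libraries, against 28.2, 29 and 25.9 FPKM in DMSO libraries. The groups did not overlap and COL1A1 fell by 19.6% (log2 fold change -0.30 ± 0.04 SE, limma adjusted p = 4.83e-04; -0.16 once GC content and length were corrected for, limma adjusted p = 0.00868). COL5A1, which starts collagen fibrils, averaged 6.68 ± 0.124 FPKM in TBOEP cells and 7.59 ± 0.0454 FPKM in DMSO cells, a fall that was not called after the correction (log2 fold change -0.03, limma adjusted p = 0.618).

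Both main chains of basement membrane type IV collagen fell, COL4A2 by 12.5% and COL4A1 by 6.64%. COL4A2 was at 74.5, 75.4 and 73.6 FPKM with TBOEP, against 85.6, 85.5 and 84.2 FPKM with DMSO (limma adjusted p = 3.58e-04). For COL4A1 the values were 78.5, 78 and 76.1 FPKM with TBOEP, against 83.7, 82.1 and 83.5 FPKM with DMSO (limma adjusted p = 0.0146). Neither gene's groups overlapped. The call of COL4A2 ended once GC content and length were corrected for (log2 fold change -0.03, limma adjusted p = 0.258). That of COL4A1 ended without DMSO replicate 1 (limma adjusted p = 0.0507), after quantile normalization (0.0948) and in limma without trend (0.0558).

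Among the other collagens, COL12A1, which coats collagen fibrils, differed by the largest share and had the lowest level. Its values were 0.843, 0.764 and 0.743 FPKM in TBOEP libraries, against 1.13, 1.09 and 1.2 FPKM in DMSO libraries, so that it reached 1 FPKM in the DMSO libraries alone. It fell by 31.2% (limma adjusted p = 0.00827, and 0.0214 with no filter on low values), at -0.26 on the log2(FPKM + 1) scale and -0.54 by limma-voom on recovered reads. COL6A1 and COL6A2, chains of the collagen VI microfilament, fell by 9.45% and 10.8%, and both turned positive once GC content and length were corrected for, COL6A1 at 0.07 (limma adjusted p = 0.232) and COL6A2 at 0.11 (limma adjusted p = 0.00676). COL6A2 had 38.5, 38.4 and 38.3 FPKM with TBOEP, against 43.2, 44.1 and 41.8 FPKM with DMSO, with no overlap. COL6A1 lost its call when TBOEP replicate 1 was left out (limma adjusted p = 0.0626), when DMSO replicate 3 was (0.0505) and with no filter (0.0533). COL7A1, the anchoring fibril collagen, averaged 22.3 ± 0.678 FPKM with TBOEP and 23.8 ± 0.349 FPKM with DMSO (limma adjusted p = 0.0581). It was called higher after the correction, at 0.13 (limma adjusted p = 0.0169). COL7A1 was called lower by limma-voom (-0.10, limma adjusted p = 0.015), after quantile normalization (-0.12, 0.0175) and with median centring (-0.15, 0.00743). A filter at 5 FPKM also called it lower (-0.09, limma adjusted p = 0.0477).

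Of the 6 laminin chains, LAMB1, LAMB3 and LAMC1 fell and LAMA3, LAMA5 and LAMB2 did not pass. LAMB1, a beta chain of many laminins, read 7.01, 6.67 and 7.01 FPKM in TBOEP libraries, against 8.87, 8.65 and 8.71 FPKM in DMSO libraries. Its groups did not overlap, and it fell by 21.1% (limma adjusted p = 4.06e-04; log2 fold change -0.30, and -0.38 after the correction). LAMC1, the gamma chain shared by most laminins, stood at 32.8, 32 and 30.8 FPKM with TBOEP, against 37.6, 36.7 and 35.9 FPKM with DMSO (limma adjusted p = 0.00153). LAMB3, a chain of the epithelial laminin of hemidesmosomes, was at 17, 17 and 16.1 FPKM with TBOEP, against 19.7, 20.4 and 18.7 FPKM with DMSO (limma adjusted p = 0.00295). LAMC1 and LAMB3 were separated between the groups too, and all 3 calls held after the correction. LAMA5 averaged 4.84 ± 0.0422 FPKM with TBOEP and 5.3 ± 0.0919 FPKM with DMSO (limma adjusted p = 0.0688), and was called higher after the correction, at 0.16 (limma adjusted p = 0.0246). LAMA5 was called lower by limma-voom (-0.13, limma adjusted p = 0.0187), after quantile normalization (-0.16, 0.0136), with median centring (-0.17, 0.0111) and in limma without trend (-0.11, 0.0363). LAMB2 at -0.02 and LAMA3 at -0.05 had intervals that span 0, from -0.11 to 0.08 and from -0.22 to 0.13 on the log2 scale, and LAMB2 was called higher after the correction, at 0.10 (limma adjusted p = 0.0445).

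The 3 linkers of the basement membrane were called lower, where 26.9% of all tested genes were, and AGRN turned higher after the GC and length correction. HSPG2 (64.5% GC) and AGRN (67.5% GC) lie over 60% GC, where 64.7% of all tested genes fell. NID1, nidogen, which joins laminin to type IV collagen, stood at 25.3, 25.2 and 23.8 FPKM in TBOEP libraries, against 30.6, 30.1 and 30.3 FPKM in DMSO libraries. It fell by 18.3% without overlap (limma adjusted p = 1.9e-04), and by more on the log2 scale after the correction, -0.34 against -0.28. HSPG2, perlecan, was at 16.2, 16 and 15.1 FPKM with TBOEP, against 20.9, 21.5 and 20.2 FPKM with DMSO, with no overlap (a fall of 24.3%, limma adjusted p = 8.26e-05). Its log2 fold change of -0.38 became -0.12 after the correction (limma adjusted p = 0.0111). AGRN, agrin, the main heparan sulfate proteoglycan of the glomerular basement membrane, read 99.7, 101 and 101 FPKM with TBOEP, against 113, 116 and 106 FPKM with DMSO. It fell by 10% (limma adjusted p = 0.00677) and had the opposite sign after the correction, at 0.10 (limma adjusted p = 0.0102).

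**Figure D3:**
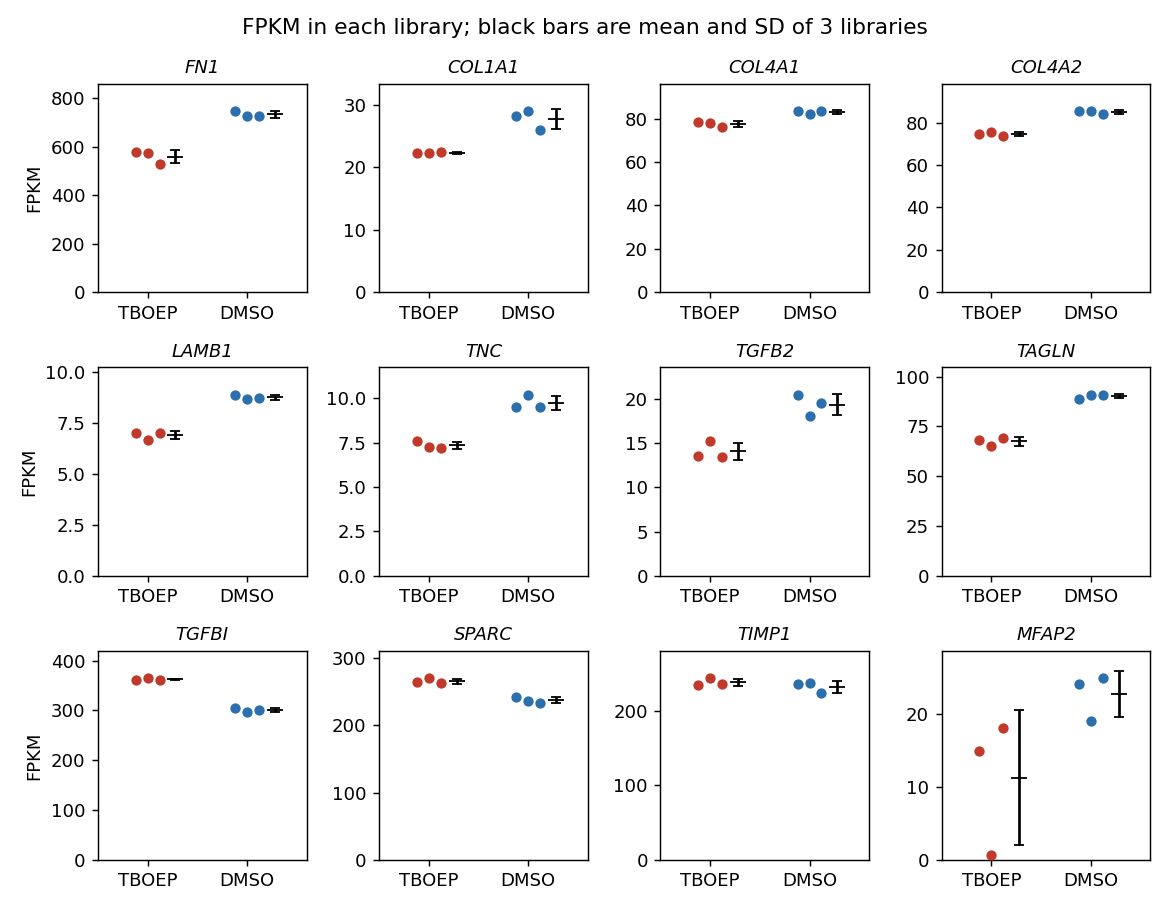
FPKM of 12 matrix genes in each library, TBOEP left (red) and DMSO right (blue), on axes that start at 0; black bars give the mean and SD of 3 libraries. FN1, COL1A1, COL4A1, COL4A2, LAMB1, TNC, TGFB2 and TAGLN are lower in all 3 TBOEP libraries, TGFBI and SPARC are higher, TIMP1 overlaps, and MFAP2 has 1 TBOEP library at 0.676 FPKM.

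Fibronectin was the most abundant matrix mRNA and fell by 23.7%. FN1, the glycoprotein on which cells assemble other matrix fibres, stood at 577, 574 and 529 FPKM in TBOEP libraries, against 749, 726 and 727 FPKM in DMSO libraries. The lowest DMSO library was well above the highest TBOEP library (log2 fold change -0.39 ± 0.04 SE, limma adjusted p = 3.52e-05; -0.34 after the correction). TNC, tenascin C, a glycoprotein of healing wounds, was at 7.57, 7.28 and 7.19 FPKM with TBOEP, against 9.5, 10.2 and 9.48 FPKM with DMSO. It too had no overlap and fell by 24.5% (limma adjusted p = 2.31e-04; log2 fold change -0.36, and -0.35 after the correction).

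The fibrillins, which form the microfibrils that store latent TGF-beta, were low and lower still with TBOEP. FBN1 had 2.03, 2.2 and 1.76 FPKM in TBOEP libraries, against 2.96, 2.67 and 2.6 FPKM in DMSO libraries (limma adjusted p = 0.00567). FBN2 had 2.19, 2.32 and 1.98 FPKM in TBOEP libraries, against 3.1, 2.75 and 2.83 FPKM in DMSO libraries (limma adjusted p = 0.00443). Neither overlapped, the falls came to 27.2% and 25.3%, and both calls held after the correction. The log2(FPKM + 1) scale understates such low genes, at -0.32 and -0.30, where limma-voom gave -0.46 and -0.42. BGN, biglycan, averaged 1.24 ± 0.202 FPKM with TBOEP and 1.55 ± 0.295 FPKM with DMSO (limma adjusted p = 0.166; 0.0352 without DMSO replicate 3, with a log2 fold change of -0.28).

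MFAP2, a microfibril-associated glycoprotein, was singled out after its values were seen. It had 15, 0.676 and 18.1 FPKM in TBOEP libraries 1 to 3, from 1455, 64 and 1596 reads, against 24.2, 19.1 and 24.9 FPKM in DMSO libraries, from 2506, 1741 and 2437 reads. TBOEP replicate 2 stood far below the other 5 libraries, and even the highest TBOEP library was below the lowest DMSO library. The log2 fold change was -1.56 ± 1.11 (limma adjusted p = 0.307), and -0.43 ± 0.14 without that library (limma adjusted p = 0.061). Of 9051 genes with at least 5 libraries at 1 FPKM or more, 9 (0.0994%) had 1 library under 0.1 of the lowest of the other 5, and in 4 of these 9 it was TBOEP replicate 2. The cause was not tested.

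2 glycoproteins went the other way. TGFBI, an adhesive matrix protein named for its induction by TGF-beta, rose to 361, 364 and 361 FPKM in TBOEP libraries, against 304, 297 and 301 FPKM in DMSO libraries. SPARC, a collagen-binding matricellular protein of basement membranes, rose to 265, 270 and 263 FPKM, against 242, 237 and 233 FPKM in DMSO libraries. All TBOEP values lay above all DMSO values for both. TGFBI rose by 20.5% (limma adjusted p = 2.71e-05) and stayed higher after the correction (log2 fold change 0.14, from 0.27). SPARC rose by 12.1% (limma adjusted p = 8.21e-04) and was at -0.03 after the correction (limma adjusted p = 0.278).

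Genes that prepare and crosslink collagen were mixed. SERPINH1, the collagen chaperone HSP47, differed by -0.06 (interval -0.12 to 0.00, limma adjusted p = 0.0843), and was called lower after the correction, at -0.08 (limma adjusted p = 0.0244), and with median centring, at -0.12 (0.00624). Of the lysyl hydroxylases, which modify collagen before secretion, PLOD1 and PLOD3 fell by 9.86% and 17.9%, while PLOD2 differed by 0.05 (limma adjusted p = 0.462). PLOD3 had 23, 25 and 23.6 FPKM with TBOEP, against 29.6, 30 and 27.6 FPKM with DMSO, with no overlap (limma adjusted p = 9.57e-04). The falls of PLOD1 and PLOD3 were not called after the correction (limma adjusted p = 0.0995 and 0.089), and 7.56% of the exon bases of PLOD3 lie in exons of a gene on the other strand.

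Within the lysyl oxidase family, LOXL2 rose and LOXL1 fell. LOXL2 had 204, 214 and 205 FPKM with TBOEP, against 192, 188 and 189 FPKM with DMSO, with no overlap. It rose by 9.36% (limma adjusted p = 0.00469; log2 fold change 0.13, and 0.18 after the correction), and centring each library on its median left it at 0.07 (limma adjusted p = 0.0703). LOXL1 had 10, 9.29 and 9.3 FPKM with TBOEP, against 11.5, 11.3 and 11.5 FPKM with DMSO (limma adjusted p = 0.00154), and was at 0.06 after the correction (limma adjusted p = 0.365). LOX itself averaged 7.87 ± 0.322 FPKM with TBOEP and 8.18 ± 0.642 FPKM with DMSO (limma adjusted p = 0.522), and PXDN, peroxidasin, which crosslinks type IV collagen, 15.3 ± 0.313 FPKM with TBOEP and 14.6 ± 0.497 FPKM with DMSO (limma adjusted p = 0.224; SD, n = 3 each).

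**Figure D4:**
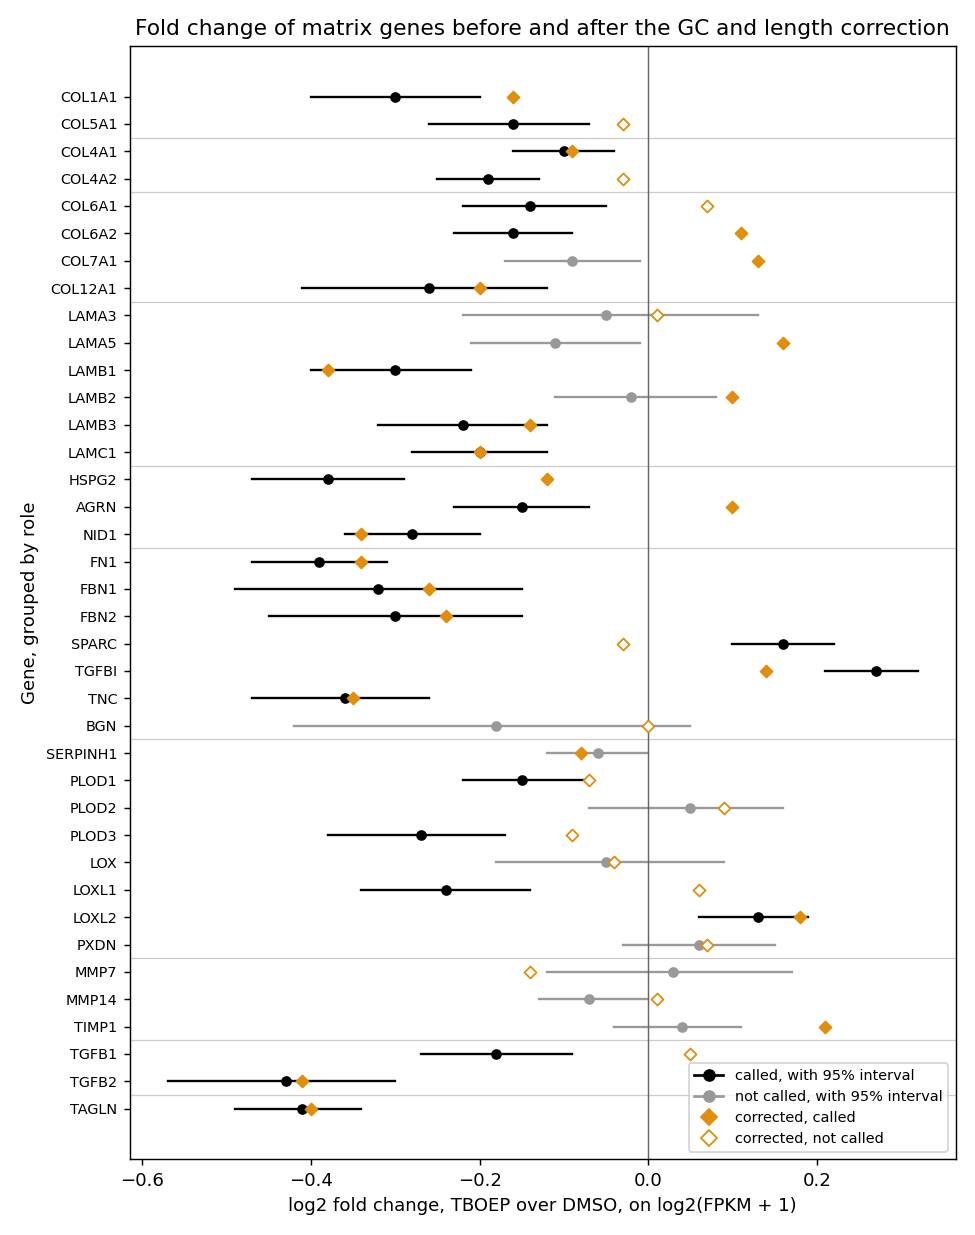
Log2 fold change of TBOEP over DMSO for 38 matrix genes by role, with MFAP2 left out. Circles and bars give the limma estimate and its 95% interval (black called, grey not called), and diamonds the value once GC content and length were corrected for (filled called, open not called). FN1, TNC, TGFB2, TAGLN, LAMB1, LAMC1 and NID1 keep negative values, while the diamonds of AGRN, COL6A2, COL7A1, LAMA5, LAMB2 and TIMP1 lie to the right of 0.

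The matrix proteases and the inhibitor TIMP1 did not pass the test. TIMP1, a secreted inhibitor of metalloproteinases, stood at 234, 243 and 236 FPKM in TBOEP libraries, against 236, 237 and 223 FPKM in DMSO libraries, with overlap (limma adjusted p = 0.363). After the correction it was called higher, at 0.21 (limma adjusted p = 3.24e-04). MMP7, matrilysin, a secreted protease that rises in injured tubules, was at 11.6, 11.4 and 9.8 FPKM with TBOEP, against 10.2, 11 and 11 FPKM with DMSO (limma adjusted p = 0.762). Its interval ran from -0.12 to 0.17 on the log2 scale. MMP14, a membrane-bound collagenase, averaged 47.8 ± 0.498 FPKM with TBOEP and 50.1 ± 0.949 FPKM with DMSO (SD, n = 3 each; limma adjusted p = 0.0862), and was called lower with median centring (log2 fold change -0.13, limma adjusted p = 0.00535).

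Both TGF-beta ligands of the list fell, TGFB2 by 27.1% and TGFB1 by 11.9%. TGFB3, a further ligand outside the list, averaged 0.685 FPKM with TBOEP and 0.694 FPKM with DMSO and was too low to be tested. TGFB2 had 13.6, 15.2 and 13.5 FPKM in TBOEP libraries, against 20.5, 18.1 and 19.5 FPKM in DMSO libraries, with no overlap (log2 fold change -0.43 ± 0.06 SE, limma adjusted p = 3.45e-04; -0.41 after the correction). TGFB1, the ligand most tied to fibrosis, had 38.6, 39.6 and 40.7 FPKM with TBOEP, against 43.3, 47.4 and 44.3 FPKM with DMSO. Its groups did not overlap (limma adjusted p = 0.00546), and it was at 0.05 after the correction (limma adjusted p = 0.189). Of the exon bases of TGFB2, 26.6% lie in exons of a second gene on the same strand.

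TAGLN, transgelin or SM22, an actin-binding protein of contractile cells, had the smallest adjusted p of the list. It stood at 68.3, 64.9 and 69.1 FPKM in TBOEP libraries, against 88.8, 90.9 and 90.8 FPKM in DMSO libraries. With no overlap it fell by 25.2% (log2 fold change -0.41 ± 0.03 SE, limma adjusted p = 1.21e-05; -0.40 after the correction). PCSK7, on the other strand, shares 11.4% of the exon bases of TAGLN, and whether counting used strand is not stated in the labels. HSPG2 (11.7%), LOXL1 (9.21%), SPARC (7.89%), TGFB1 (6.64%) and LOXL2 (5.22%) also share over 5% of their exon bases with other genes. A part of their reads is therefore of uncertain origin. The same holds for LAMA5, which shares 2.54% of its exon bases with other genes. ADRM1, on the other strand, is among these and averaged 111 FPKM over 6 libraries, far above LAMA5 itself. Over 6 libraries the partners averaged 0.0303 FPKM for HSPG2 (LDLRAD2), 1.94 FPKM for LOXL1 (LOXL1-AS1), 3.21 FPKM for LOXL2 (ENTPD4), 1.16 FPKM for TAGLN (PCSK7), 42.2 FPKM for PLOD3 (ZNHIT1) and 53.9 FPKM for TGFB1 (HNRNPUL1), and the last pair of partners stood above the genes themselves. A separate list of 5 smooth muscle markers summed to between 7.05 and 7.56 FPKM in TBOEP libraries and between 7.31 and 8.14 FPKM in DMSO libraries, and 1 of the 5 reached 1 FPKM in 3 libraries; its part in the TAGLN difference was not tested.

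Further genes of the same pathways, 164 in 7 lists that leave out the 48, were split between directions. Of 94 that were tested, 23 rose (26.9% of all tested genes rose), 31 fell (26.9% of all tested genes fell) and 40 did not pass. Collagen biosynthesis had more rises than falls, with 9 of 19 higher and 6 lower, where 26.9% of all tested genes went each way. P4HA2, a collagen prolyl hydroxylase subunit, averaged 26.6 ± 0.106 FPKM with TBOEP and 17 ± 0.887 FPKM with DMSO. PCOLCE2, an enhancer of procollagen cleavage, averaged 5.69 ± 0.195 FPKM with TBOEP and 3.16 ± 0.286 FPKM with DMSO, and KLHL12, which helps export collagen, 7.97 ± 0.174 FPKM with TBOEP and 5.69 ± 0.127 FPKM with DMSO (SD, n = 3 each). All 3 rose (limma adjusted p = 5.93e-06, 2.85e-05 and 6.28e-05), with log2 fold changes of 0.61, 0.69 and 0.42, and of 0.39, 0.32 and 0.20 after the correction.

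Of 18 further glycoproteins, proteoglycans and matricellular genes, 4 rose and 5 fell, where 26.9% of all tested genes went each way. THBS1, thrombospondin, an activator of latent TGF-beta, averaged 83 ± 3.54 FPKM with TBOEP and 111 ± 3.43 FPKM with DMSO, and VCAN, versican, 9.77 ± 0.491 FPKM with TBOEP and 14 ± 0.691 FPKM with DMSO. Both fell (limma adjusted p = 3.16e-05 and 7.53e-05), each at -0.42 after the correction. SDC4, a cell surface proteoglycan, rose to 457 ± 10.7 FPKM with TBOEP, against 353 ± 11.3 FPKM with DMSO (limma adjusted p = 2.17e-05), and was at 0.04 after the correction (limma adjusted p = 0.221).

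The receptors, SMADs and regulators of TGF-beta had 2 rises and 5 falls among 17 genes, where 26.9% of all tested genes went each way. BAMBI, a decoy receptor for TGF-beta, rose by 0.54 and TGIF1, a SMAD corepressor, by 0.42 on the log2 scale, while FURIN, the protease that matures TGF-beta, fell by 0.33 (limma adjusted p = 1.5e-05, 4.27e-05 and 3.59e-05). After the correction these values were 0.22, 0.26 and -0.18. Mesenchymal and contractile genes had 3 rises and 6 falls among 15, where 26.9% of all tested genes went each way. TPM4, a tropomyosin, rose by 0.54, VIM, vimentin, by 0.34, and MYL9, a myosin light chain, fell by 0.42 (limma adjusted p = 5.71e-06, 1.28e-05 and 2.42e-05). After the correction TPM4 was at 0.28 and MYL9 at -0.27, both still called (limma adjusted p = 2.2e-04 and 1.94e-04). VIM was then at 0.02 and not called (limma adjusted p = 0.534).

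Among 14 further proteases and inhibitors, 4 rose and 7 fell, where 26.9% of all tested genes went each way. SERPINE2, protease nexin, rose by 0.39, and BSG, the metalloproteinase inducer, and ADAM15 fell by 0.29 and 0.28 (limma adjusted p = 5.9e-05, 1.3e-04 and 6.52e-04). ADAM15 was not called after the correction (limma adjusted p = 0.0753), and BSG was at -0.07. Of 6 further collagens, COL9A2 fell by 0.43 (limma adjusted p = 1.42e-04; -0.17 after the correction), COL27A1 rose by 0.16 (limma adjusted p = 0.0421; 0.31 after the correction, and not called with median centring at 0.10, with limma adjusted p = 0.167, after quantile normalization at 0.0796 or with the replicate block at 0.0712) and COL14A1 differed by -0.12 (limma adjusted p = 0.169). Of 5 further laminin and basement membrane genes, LAMC3 fell by 0.25 (limma adjusted p = 0.00143) and was at -0.05 and not called after the correction. NTN4 and DAG1 differed by -0.13 and 0.06 (limma adjusted p = 0.175 and 0.234). After the correction NTN4 was called lower, at -0.34 (limma adjusted p = 0.00731), and DAG1 was not called, at 0.05 (limma adjusted p = 0.282).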

How the data were processed

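RNA-seq libraries of HK2 cells, 3 with TBOEP and 3 with DMSO, were grouped by treatment label. Per the labels' protocols, RNA was extracted with TRIzol; 2 library kits are named, without saying which libraries used which. The submitters' processing notes name Trimmomatic and HISAT2. The counting tool, genome build and annotation were not given in the sources used here. The deposited values have no stated unit and were read as FPKM: within a gene they are whole multiples of 1 step once each library has 1 factor, which gave whole reads for 25808 genes (tolerance 0.01 reads). Implied lengths equalled GENCODE 29 merged exons in 2569 of 11787 genes with over 300 reads, so levels of different genes carry the lengths the authors used. Symbols matched 25795 IDs; where several rows shared a symbol, the one with the highest mean was used.

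The 9631 genes reaching 1 FPKM in 3 or more libraries were tested on log2(FPKM + 1) with limma 3.58.1 in R 4.3.3 (trended, robust, two-sided, no covariate; Benjamini-Hochberg threshold 0.05). The correction used mgcv 1.9.3 on GC content and length of each gene's longest GENCODE 29 transcript (known for 98.9% of tested genes). Alternatives were 2 pseudocounts, 2 filters, quantile normalization, median centring, limma without trend or robust moderation, a replicate block, each library left out, limma-voom on recovered reads, and protein-coding genes alone. The script was tested on simulated data. Replicate pairs differed by more than sampling noise (chi-square per degree of freedom 7.73 to 9.38). Values in every library are given for up to 20 called genes with the smallest adjusted p, the most abundant of each role, and COL1A1, COL4A1, COL4A2, FN1, TGFB1, ACTA2 and MMP7; up to 3 genes are named per further list. Members and lists were chosen with earlier results of these data known, and so were the 60% GC class and the alternatives. A tubule marker gene is not reported here.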

Additional observations from a re-analysis of the deposited data

How the results depend on the processing

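Calls of the matrix genes moved most with the GC and length correction: the counts of 23 lower and 3 higher became 15 and 8. Log2 fold changes that changed sign under it were COL6A1 at 0.07, COL6A2 0.11, COL7A1 0.13, LAMA3 0.01, LAMA5 0.16, LAMB2 0.10, AGRN 0.10, SPARC -0.03, BGN 0.00, LOXL1 0.06, MMP7 -0.14, MMP14 0.01 and TGFB1 0.05; the cause was not tested. Quantile normalization and median centring left PLOD2 at -0.01 and MMP7 at -0.03 under each, and median centring TIMP1 at -0.02. Leaving out 1 library gave 22 to 23 lower, 3 higher and 4556 to 4774 called genes; LAMB2 ran from -0.05 to 0.00, LOX from -0.08 to 0.01 and MMP7 from -0.02 to 0.10. Median centring gave 27 lower and 2 higher of the matrix genes, and moved the split of all called genes from 2592 higher and 2586 lower to 2115 and 3370. The other alternatives gave 21 to 25 lower and 3 higher.

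Replicate numbers were not shown to pair the libraries (correlations of deviations 0.11, -0.03 and 0.01). With the replicate block 23 were lower and 3 higher, and 4791 genes were called over the table. The filter that left out the 6 genes under 1 FPKM scales reads to gene length. COL4A5 had 227 to 272 reads and was left out by that filter, not by depth. Depth limits the others, which had at most 51 reads.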

Other observations

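Pairs of matrix genes were also compared within each library, as ratios of FPKM chosen after the values were seen and without a test. COL4A1 over COL4A2 was 1.05, 1.04 and 1.04 in TBOEP libraries, against 0.978, 0.961 and 0.991 in DMSO libraries. The laminin ratio LAMC1 over LAMB1 was 4.67, 4.81 and 4.4 in TBOEP libraries, against 4.24, 4.24 and 4.12 in DMSO libraries. TIMP1 over MMP14 was 4.89, 5.03 and 5.01 in TBOEP libraries, against 4.81, 4.71 and 4.38 in DMSO libraries. Whether TIMP1 acts on MMP14 was not tested. LOXL2 over LOX was 26.8, 25.9 and 26.3 in TBOEP libraries, against 24.3, 24.3 and 21.2 in DMSO libraries. In these 4 ratios the groups did not overlap, and they did not in 62.3% of all tested genes taken singly. No such share was computed for ratios of other genes. COL6A2 over COL6A1 overlapped, at 2.3 to 2.41 in TBOEP libraries and 2.23 to 2.47 in DMSO libraries, and so did TGFB1 over TGFB2, at 2.6 to 3.02 in TBOEP libraries and 2.12 to 2.62 in DMSO libraries. GC content differs within the type IV pair, at 55.4% in COL4A1 and 62% in COL4A2, and once GC content and length were corrected for, the log2 fold changes were -0.09 for COL4A1 and -0.03 for COL4A2, the opposite order from the ratio. The corrected log2 fold changes kept the order of the ratio for LAMC1 and LAMB1 (-0.20 and -0.38), TIMP1 and MMP14 (0.21 and 0.01) and LOXL2 and LOX (0.18 and -0.04).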
